A study of Mus musculus with 4 samples.

Results

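The 36 genes described here encode enzymes and carriers of fatty acid oxidation and ketone body metabolism in liver. They were chosen by name, as 18 genes of mitochondrial β-oxidation, 6 of peroxisomal oxidation, 3 of ketone body metabolism and 9 of fatty acid uptake, activation and thioester cleavage. These genes and the further lists below were chosen with earlier results of these data known. Their shares of called genes, set beside those of all tested genes, are therefore no test of enrichment. All 36 were found among the 24421 gene symbols of the deposited table, and all 36 were among the 11070 genes that passed the filter on low values, an average FPKM of 1 or more across the 4 libraries. RNA came from livers of mice after hepatectomy, the surgical removal of part of the liver. The gelADSC group (2 libraries) was given a fibrin gel that held ADSC (stem cells from adipose tissue), and the control group (2 libraries) was given fibrin gel, so that both groups shared the operation and the gel. The sources used here do not give the strain, sex, age, time after surgery, extent of the resection or origin of the ADSC. They also do not say whether both libraries of a group stem from different mice, so p-values measure the spread between these libraries, which may be technical. Libraries are called by the numbers in the deposited column names.

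Fatty acids are taken up by hepatocytes through membrane carriers, bound by a cytosolic carrier protein and joined to coenzyme A. The carnitine shuttle moves long chains into mitochondria, where repeated cycles of dehydrogenation, hydration, a second dehydrogenation and thiolytic cleavage release acetyl-CoA and pass electrons to the respiratory chain. Peroxisomes shorten very long and branched chains and bile acid side chains, and hepatocytes turn surplus acetyl-CoA into ketone bodies that other tissues burn. Many of these genes are known targets of PPARα, a nuclear receptor that binds DNA as a heterodimer with RXR at direct repeats of a hexamer spaced by 1 base.

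Promoter windows are shown for 3 members because they hold a loose form of such a repeat, defined below. The window of Hadhb is shown because Hadha and Hadhb, the subunit genes of the mitochondrial trifunctional protein, start back to back. The sequences are those of RefSeq on GRCm38.p6, run from 250 bases before to 50 bases after a gene's start, and were found for 31 of the 36 members. Capitals mark GGNCA, any 1 base and AGGNCA in a row, or the reverse complement. This is a loose form of the repeat, since its first hexamer lacks the first base. It was searched on both strands and chosen after several spellings had been tried. The Fabp1 window lies at chr6:71199629-71199928 on the plus strand, that of Acox2 (the upstream of its 2 windows) at chr14:8258970-8259269 on the minus strand, that of Acot4 at chr12:84038129-84038428 on the plus strand and that of Hadhb at chr5:30155003-30155302 on the plus strand.
Fabp1: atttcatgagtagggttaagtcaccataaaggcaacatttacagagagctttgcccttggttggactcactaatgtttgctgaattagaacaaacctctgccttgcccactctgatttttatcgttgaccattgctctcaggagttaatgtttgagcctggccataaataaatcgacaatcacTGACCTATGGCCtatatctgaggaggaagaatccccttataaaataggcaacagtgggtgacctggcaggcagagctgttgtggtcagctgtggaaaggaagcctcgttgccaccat
Acox2: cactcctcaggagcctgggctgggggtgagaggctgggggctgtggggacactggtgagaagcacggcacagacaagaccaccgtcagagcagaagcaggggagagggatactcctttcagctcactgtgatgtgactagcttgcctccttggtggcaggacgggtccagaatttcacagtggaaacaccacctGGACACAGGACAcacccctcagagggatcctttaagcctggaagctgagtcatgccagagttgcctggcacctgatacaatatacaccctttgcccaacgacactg
Acot4: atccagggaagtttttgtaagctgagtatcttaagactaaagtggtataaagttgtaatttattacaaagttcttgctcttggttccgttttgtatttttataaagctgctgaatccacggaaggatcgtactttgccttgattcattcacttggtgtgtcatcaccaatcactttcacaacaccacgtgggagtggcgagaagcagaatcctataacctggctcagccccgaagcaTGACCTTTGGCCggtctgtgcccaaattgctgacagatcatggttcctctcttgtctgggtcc
Hadhb: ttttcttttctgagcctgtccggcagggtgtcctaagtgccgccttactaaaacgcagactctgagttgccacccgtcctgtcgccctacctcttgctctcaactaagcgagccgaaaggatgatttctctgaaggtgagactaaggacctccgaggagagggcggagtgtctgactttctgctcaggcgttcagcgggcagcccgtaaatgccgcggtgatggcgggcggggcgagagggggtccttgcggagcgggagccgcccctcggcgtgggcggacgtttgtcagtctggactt
The match in Fabp1 began at -67 and read TGACCTATGGCC on the window's strand, the match in Acox2 began at -56 and read GGACACAGGACA, and the match in Acot4 began at -13 and read TGACCTTTGGCC. This loose form stood in 3 of the 31 members with a window (1 higher, 1 lower and 1 not called in gelADSC, as given below) and in 0.932% of all 27025 genes with a window. Because the spelling was chosen after others had been tried, these shares are no test of enrichment. With both hexamers in full, as AGGNCA, 1 base and AGGNCA, it stood in 1 of the 31 members (Fabp1) and in 0.451% of all genes. A single AGGTCA stood in 10 of the 31 members and in 18.1% of all genes. The full repeat, 2 copies of AGGTCA spaced by 1 base, stood in 0 of the 31 members and in 0.0481% of all genes. The starts of Hadha, on the minus strand, and Hadhb, on the plus strand, were 273 bases apart, and their windows overlapped by 228 bases.

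By the test given next, 3 of 4 genes of fatty acid uptake and activation were higher in gelADSC livers. Peroxisomal genes were higher in 3 of 6 cases, all thiolase genes, and lower in 1. Mitochondrial genes were higher in 1 of 18 cases and lower in 1. Over all tested genes, 6.92% were higher and 17.5% lower. The peroxisomal count higher was 0 with no filter and 1 with median ratio scaling. Of the 36 genes 7 were higher (Slc27a2, Acsl1, Fabp1, Hadh, Scp2, Acaa1b and Acaa1a) and 3 lower (Acot2, Acox2 and Acadl) in gelADSC than in control livers at a limma adjusted p under 0.05. That is 27.8% of the 36, beside 24.4% of the 11070 genes tested. The share higher was 19.4%, beside 6.92%, and the share lower 8.33%, beside 17.5%. The median log2 change was 0.13, with a range from -2.21 to 1.72, while the median of all tested genes was -0.25. Changes are differences of mean log2(FPKM + 1), gelADSC minus control, which understate the change of low genes, and FPKM is a level per gene length and library size, so levels can also be set side by side between genes. The groups did not overlap for 24 of the 36 genes (66.7%, beside 69.8% of all tested genes), with gelADSC above control in 16 (beside 19.2% of all tested genes) and below it in 8 (beside 50.5%). Summed over the 36 genes, the level was 10877 and 12918 FPKM in gelADSC libraries 2 and 3, against 6076 and 7415 FPKM in control libraries 1 and 3, and without Fabp1, the most abundant of them, 5786 and 5822 FPKM in gelADSC libraries, against 3969 and 4598 FPKM in control libraries.

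**Figure D1:**
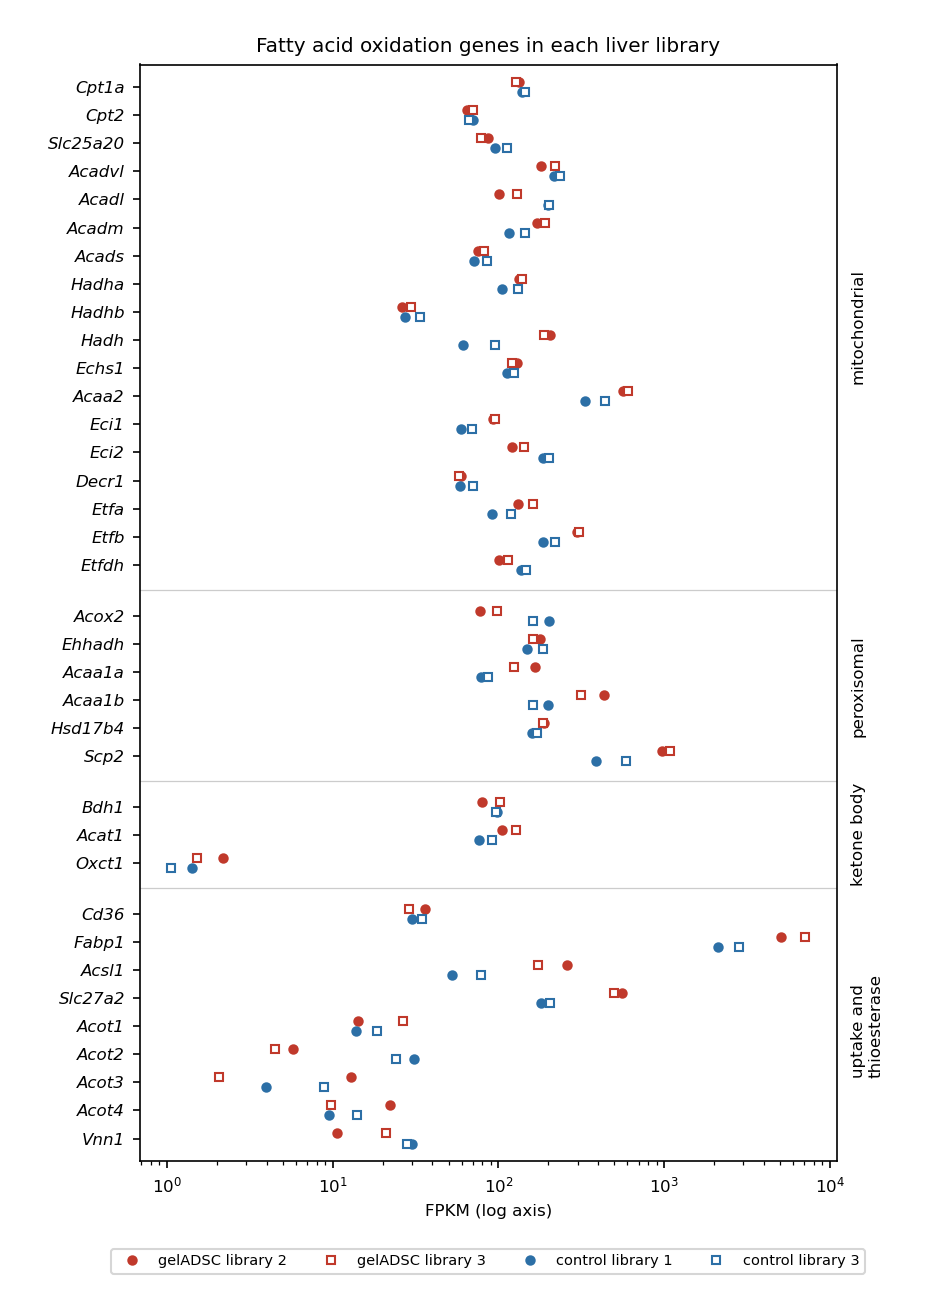
Level of each of the 36 genes in FPKM (log axis) in gelADSC libraries 2 and 3 (red, upper row of each gene) and control libraries 1 and 3 (blue, lower row), grouped by class. Fabp1 ranked highest and Oxct1 lowest in all 4 libraries, and the groups lie clearly apart for Slc27a2, Acsl1 and Acot2.

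Depth was about 18100000 to 24400000 reads per library, estimated from the spacing of low FPKM values, and 1 read in a 2 kb gene was worth 0.0205 to 0.0276 FPKM, far below the level of every gene of the set. Control library 1 stood apart from control library 3: 29 of the 36 genes read lower in library 1, by a median of 0.22 on the log2 scale, although the median tested gene read higher there (difference of library 3 minus library 1, -0.21). The gelADSC libraries differed by a median of 0.05 over the 36 genes (library 3 minus library 2). Without control library 1, Slc27a2 was the 1 gene higher and Acot2 the 1 gene lower, and without control library 3 the counts were 5 and 2. Median ratio scaling, which removes the downward shift of the median gene and turns 766 higher and 1936 lower genes of the whole table into 952 and 948, left 5 of the 36 genes higher and 2 lower.

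Of the 4 uptake and activation genes, Slc27a2, Acsl1 and Fabp1 rose and Cd36 did not pass the test. Slc27a2 (FATP2), a very long chain acyl-CoA synthetase that also serves in fatty acid uptake, measured 557 and 496 FPKM in gelADSC libraries 2 and 3, against 181 and 205 FPKM in control libraries 1 and 3. Both gelADSC libraries lay above both controls, with means of 527 ± 43.1 FPKM in gelADSC and 193 ± 17.3 FPKM in control (SD, n = 2 each), a log2 change of 1.44 with SE 0.20 (limma adjusted p = 0.00199). This call held in all 9 alternative settings, with adjusted p up to 0.0434. Acsl1, the main long chain acyl-CoA synthetase of liver, measured 259.8 and 174 FPKM in gelADSC libraries, against 52.5 and 78.2 FPKM in control libraries. The libraries within each group differed, but the groups did not overlap (log2 change 1.72, SE 0.27, limma adjusted p = 0.00339). Its adjusted p was 0.0691 without control library 1.

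Fabp1, the liver fatty acid binding protein that carries fatty acids through the cytosol, was the most abundant of the 36 transcripts in every library, with 5091 and 7095 FPKM in gelADSC libraries, against 2107 and 2816 FPKM in control libraries. It rose 2.48-fold between group means (log2 change 1.30, SE 0.29, limma adjusted p = 0.0147), and its call was lost with quantile normalization (0.0948), with no filter (0.152) and without control library 1 (0.162). Its promoter window, printed above, holds the loose repeat at -67. Cd36, a fatty acid translocase found on macrophages, adipocytes and endothelium as well as hepatocytes, measured 35.97 and 28.9 FPKM in gelADSC libraries, against 30.1 and 34.8 FPKM in control libraries. The groups overlapped, and the change was between -0.46 and 0.45 at the 95% level (adjusted p = 0.991).

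The acyl-CoA thioesterases, which cut acyl-CoA back to free fatty acid and coenzyme A, did not move together. Acot2, the mitochondrial enzyme, fell to 5.78 and 4.47 FPKM in gelADSC libraries, against 30.9 and 24.0 FPKM in control libraries. Group means were 5.13 ± 0.926 FPKM in gelADSC and 27.4 ± 4.89 FPKM in control (SD, n = 2 each), a log2 change of -2.21 with SE 0.22 (limma adjusted p = 0.00049), the largest change of the 36 genes, and the call held in all 9 alternative settings (adjusted p up to 0.023). Acot1, the cytosolic enzyme and the next gene along the chromosome, measured 14.3 and 26.5 FPKM in gelADSC libraries, against 13.9 and 18.4 FPKM in control libraries, with overlap between groups (log2 change 0.27, 95% interval -0.39 to 0.94, adjusted p = 0.518). Of the 50-base stretches of Acot2 transcripts in GENCODE M21, 24.5% also occur in Acot1 transcripts, so some reads could not be assigned to 1 of the 2 by sequence alone.

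Acot3 and Acot4, peroxisomal thioesterases whose genes follow in the same row of neighbours, differed more between the gelADSC libraries than between groups. Acot3 measured 13.0 and 2.07 FPKM in gelADSC libraries 2 and 3, against 3.99 and 8.82 FPKM in control libraries 1 and 3. One gelADSC library was the highest and the other the lowest of the 4 (log2 change -0.09, 95% interval -1.51 to 1.32, adjusted p = 0.924). Leaving out gelADSC library 2 gave a log2 change of -1.19 (adjusted p = 0.00705), and leaving out gelADSC library 3 gave 1.00 (adjusted p = 0.0292), so its direction rested on which library was used. Acot4 measured 22.1 and 9.73 FPKM in gelADSC libraries, against 9.52 and 14.1 FPKM in control libraries, and was called higher when gelADSC library 3 was left out (adjusted p = 0.0492). Vnn1, the pantetheinase vanin-1, measured 10.6 and 21.1 FPKM in gelADSC libraries, against 30.2 and 28.1 FPKM in control libraries, without overlap (log2 change -0.91, adjusted p = 0.0519). It was called lower at a pseudocount of 0.1 (adjusted p = 0.0478) and without gelADSC library 3 (adjusted p = 0.000419).

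**Figure D2:**
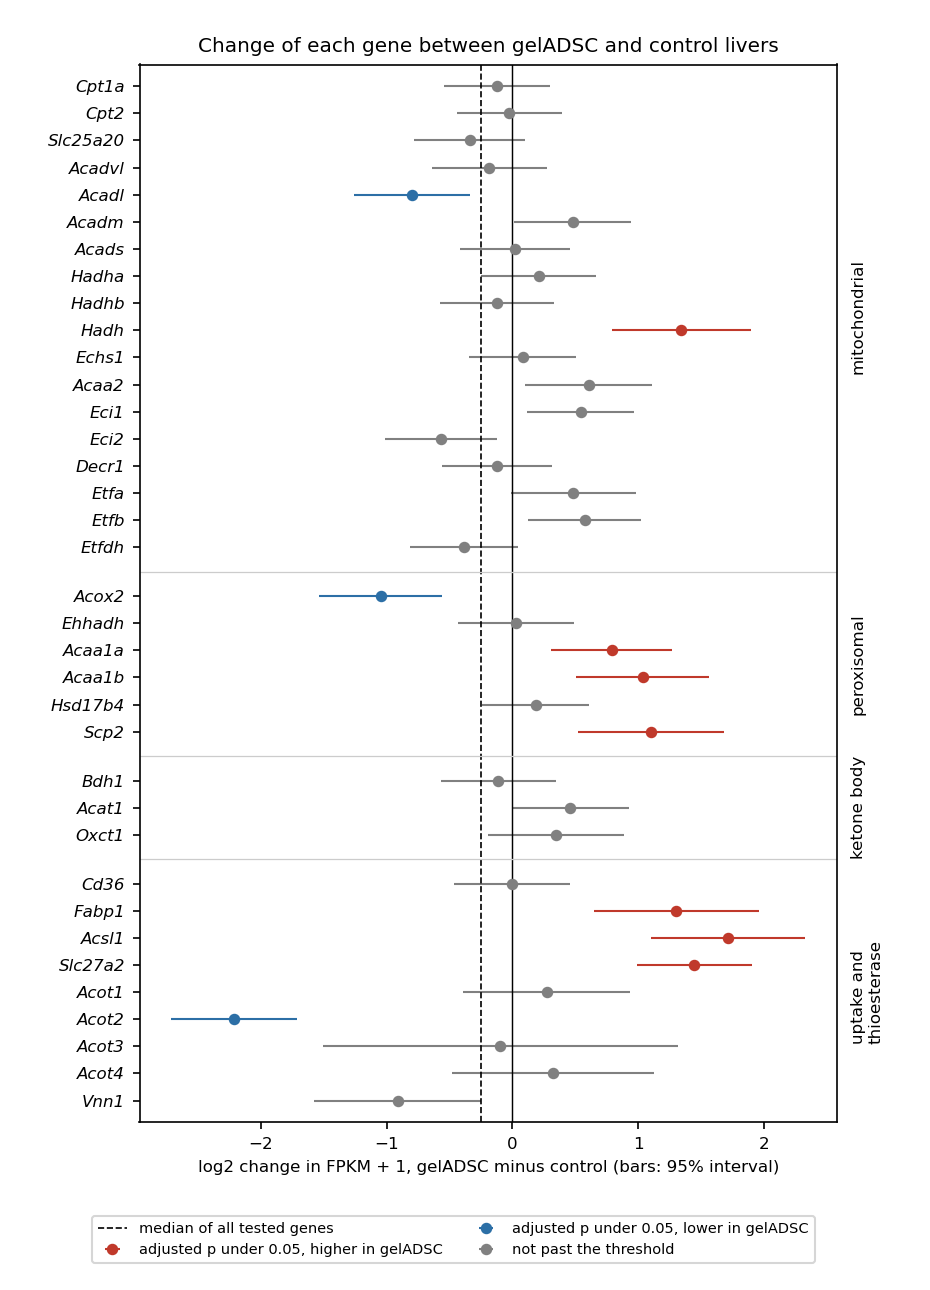
Log2 change of each of the 36 genes, gelADSC minus control, with its 95% interval from the limma fit, coloured by the call and grouped by class, and the median of all tested genes as a dashed line. Mitochondrial genes lie between -0.80 and 1.34, and the extremes of the whole set are Acot2 at -2.21 and Acsl1 at 1.72.

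Peroxisomal genes were split, with 3 of 6 higher (Scp2, Acaa1b and Acaa1a) and 1 lower (Acox2), beside 6.92% and 17.5% of all tested genes, and a median log2 change of 0.49 against -0.25 for all tested genes. Scp2 encodes sterol carrier protein x, the thiolase of branched chains and bile acid side chains, and the lipid carrier SCP2 from a second promoter, which gene-level values do not separate. It measured 968 and 1084 FPKM in gelADSC libraries, against 388 and 588 FPKM in control libraries, with no overlap (log2 change 1.10, SE 0.25, limma adjusted p = 0.0171). The call was lost at adjusted p of 0.0840 (no filter), 0.0537 (median ratio scaling), 0.0667 (quantile normalization) and 0.141 (no control library 1). A pseudogene, Scp2-ps2, holds 37.5% of the 50-base stretches of Scp2 transcripts, so the Scp2 level is uncertain, by an amount that was not measured.

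The thiolases Acaa1a and Acaa1b cut straight-chain 3-ketoacyl-CoA in peroxisomes and are close copies of each other. Acaa1b measured 432 and 315 FPKM in gelADSC libraries, against 199.5 and 161 FPKM in control libraries (log2 change 1.04, SE 0.23, limma adjusted p = 0.0152). Acaa1a measured 166 and 124 FPKM in gelADSC libraries, against 78.5 and 86.6 FPKM in control libraries (log2 change 0.79, SE 0.21, limma adjusted p = 0.0293). For both genes each gelADSC library lay above each control, and both calls were lost with no filter (adjusted p = 0.0657 for Acaa1b and 0.0766 for Acaa1a), when control library 1 was left out (0.0848 for Acaa1b and 0.176 for Acaa1a) and when control library 3 was left out (0.0832 for Acaa1b and 0.0761 for Acaa1a). The call of Acaa1a was also lost with median ratio scaling (0.0531) and without gelADSC library 2 (0.207). They share 35.5% of the 50-base stretches of Acaa1b and 26.7% of those of Acaa1a, so how reads were divided between them is uncertain.

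Acox2, the oxidase that acts on bile acid precursors, went the other way. It measured 77.0 and 98.1 FPKM in gelADSC libraries, against 201 and 163 FPKM in control libraries, with means of 87.5 ± 14.9 FPKM in gelADSC and 182 ± 27.0 FPKM in control (SD, n = 2 each), a log2 change of -1.05 with SE 0.21 (limma adjusted p = 0.0106). Its call was lost without control library 1 (adjusted p = 0.107). Ehhadh, the peroxisomal bifunctional enzyme of straight chains, measured 178 and 163 FPKM in gelADSC libraries, against 149.7 and 186 FPKM in control libraries (log2 change 0.03, 95% interval -0.43 to 0.49). Hsd17b4, the bifunctional enzyme of branched chains, measured 188 and 187 FPKM in gelADSC libraries, against 159 and 170.2 FPKM in control libraries (log2 change 0.19, 95% interval -0.24 to 0.61). Neither of the bifunctional enzymes passed the test.

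**Figure D3:**
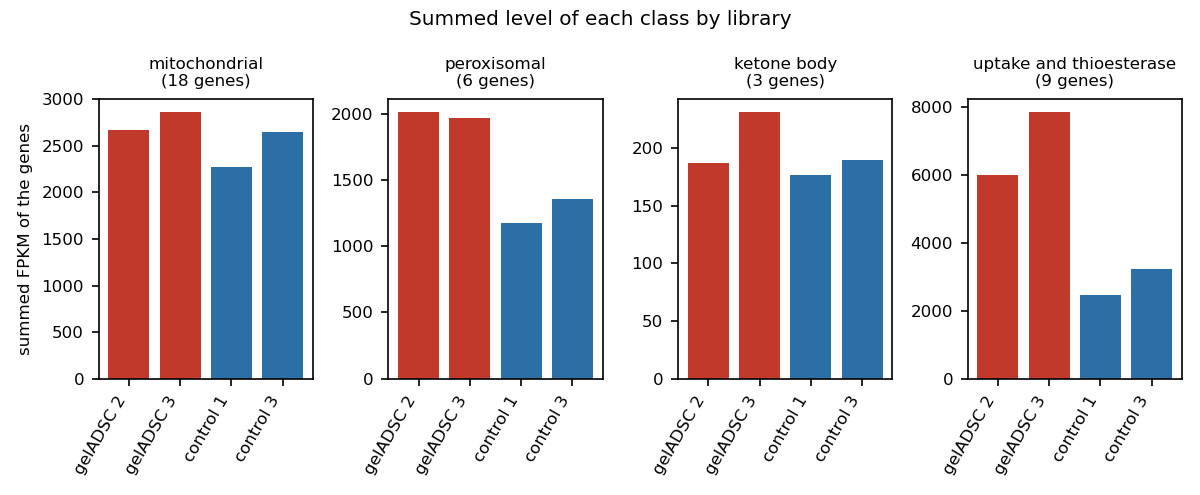
Summed FPKM of the genes of each class in gelADSC libraries 2 and 3 (red) and control libraries 1 and 3 (blue), each bar 1 library and each panel with its own axis starting at 0. The peroxisomal sum was 2010 and 1970 FPKM in gelADSC against 1175 and 1354 FPKM in control libraries. Most of that gap was Scp2, at 968 and 1084 FPKM in gelADSC against 388 and 588 FPKM in control libraries. The mitochondrial sum, 2671 and 2858 FPKM in gelADSC against 2266 and 2643 FPKM in control libraries, shows a smaller gap.

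Of 18 mitochondrial genes 1 was higher (Hadh) and 1 lower (Acadl), 5.56% in each direction, beside 6.92% and 17.5% of all tested genes. Their median log2 change was -0.00, and 12 of the 18 lay within 0.5 of no change. None of the 3 carnitine shuttle genes passed the test (0 of 3 by limma, also at an unadjusted p under 0.05). Cpt1a, the outer membrane transferase that sets the rate of entry, measured 133 and 128 FPKM in gelADSC libraries, against 139.6 and 145 FPKM in control libraries. Its groups did not overlap, but the difference was small (log2 change -0.12, 95% interval -0.54 to 0.29, adjusted p = 0.646). Cpt2, the inner membrane transferase, measured 64.3 and 70.3 FPKM in gelADSC libraries, against 70.3 and 66.7 FPKM in control libraries (95% interval -0.44 to 0.39). Slc25a20, the carnitine-acylcarnitine carrier, measured 86.0 and 78.0 FPKM in gelADSC libraries, against 95.6 and 113 FPKM in control libraries (log2 change -0.34, 95% interval -0.78 to 0.10, adjusted p = 0.220).

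The acyl-CoA dehydrogenases, which take the first step of the spiral and differ in chain length, diverged. Acadl, the long chain enzyme, fell to 101 and 129 FPKM in gelADSC libraries, against 199.0 and 201 FPKM in control libraries, with no overlap (log2 change -0.80, SE 0.20, limma adjusted p = 0.0242). The call did not hold with no filter (adjusted p = 0.0631), with quantile normalization (0.0599), with median ratio scaling (0.109), or without control library 1 (0.132), control library 3 (0.0773) or gelADSC library 2 (0.157). Acadm, the medium chain enzyme, measured 172 and 190.4 FPKM in gelADSC libraries, against 115 and 145 FPKM in control libraries. The groups did not overlap, and the difference missed the threshold (log2 change 0.48, 95% interval 0.02 to 0.94, adjusted p = 0.115). Acadvl, the very long chain enzyme, measured 181 and 218 FPKM in gelADSC libraries, against 218 and 235 FPKM in control libraries, and Acads, the short chain enzyme, 75.8 and 82.0 FPKM in gelADSC libraries, against 70.9 and 85.0 FPKM in control libraries. Neither passed the test (adjusted p = 0.522 and 0.946), with 95% intervals of -0.64 to 0.27 and -0.42 to 0.46.

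Among the later enzymes of the spiral, Hadh, the 3-hydroxyacyl-CoA dehydrogenase of short and medium chains, rose. It measured 204 and 187 FPKM in gelADSC libraries, against 61.0 and 95.9 FPKM in control libraries. Group means were 196 ± 11.9 FPKM in gelADSC and 78.5 ± 24.7 FPKM in control (SD, n = 2 each), a log2 change of 1.34 with SE 0.24 (limma adjusted p = 0.00642), with an adjusted p of 0.0628 without control library 1. Acaa2, the mitochondrial 3-ketoacyl-CoA thiolase, was the most abundant mitochondrial member, with 562 and 607 FPKM in gelADSC libraries, against 334 and 442 FPKM in control libraries. The groups did not overlap, but the change did not pass the test (log2 change 0.60, 95% interval 0.10 to 1.11, adjusted p = 0.0779). Hadha and Hadhb, the long chain subunits that start back to back, measured 132 and 139 FPKM (Hadha) and 26.1 and 29.5 FPKM (Hadhb) in gelADSC libraries, against 104 and 131 FPKM (Hadha) and 27.4 and 33.5 FPKM (Hadhb) in control libraries. Neither passed the test (adjusted p = 0.461 and 0.674), and 57.5% of the 50-base stretches of Hadhb also occur in transcripts of other genes, mostly those of the pseudogene Gm13910, so its lower level beside Hadha is uncertain. Echs1, the short chain enoyl-CoA hydratase, measured 129 and 121 FPKM in gelADSC libraries, against 113 and 123 FPKM in control libraries (95% interval -0.34 to 0.51).

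The auxiliary enzymes of unsaturated fatty acids went in different directions without passing the test. Eci1, the mitochondrial enoyl-CoA isomerase, measured 93.0 and 95.6 FPKM in gelADSC libraries, against 59.7 and 69.6 FPKM in control libraries (log2 change 0.54, adjusted p = 0.0661), and was called higher with quantile normalization (0.0447). Eci2, an isomerase found in peroxisomes and mitochondria, measured 121 and 143 FPKM in gelADSC libraries, against 186 and 203 FPKM in control libraries (log2 change -0.56, adjusted p = 0.0661). Decr1, the 2,4-dienoyl-CoA reductase, measured 59.6 and 57.6 FPKM in gelADSC libraries, against 58.3 and 70.0 FPKM in control libraries (95% interval -0.56 to 0.31). Groups overlapped for Decr1 alone of these 3.

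The electron transfer genes likewise missed the threshold. Etfa and Etfb encode the subunits of the flavoprotein that accepts electrons from the dehydrogenases, and Etfdh passes them to ubiquinone. Etfa measured 131 and 162 FPKM in gelADSC libraries, against 91.1 and 118 FPKM in control libraries (log2 change 0.48, adjusted p = 0.134). Etfb measured 298 and 305 FPKM in gelADSC libraries, against 187 and 219 FPKM in control libraries (log2 change 0.57, adjusted p = 0.0636). Etfdh measured 101 and 115 FPKM in gelADSC libraries, against 136 and 146 FPKM in control libraries (log2 change -0.39, adjusted p = 0.162). Groups did not overlap for any of the 3 (beside 69.8% of all tested genes), with the flavoprotein subunits above and Etfdh below control. An overlapping gene model, Gm45233, holds 57.7% of the 50-base stretches of Etfb.

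Of the 3 ketone body genes 0 passed the test by limma, and 0 had an unadjusted p under 0.05. Acat1, the mitochondrial acetoacetyl-CoA thiolase, measured 104 and 128 FPKM in gelADSC libraries, against 76.2 and 91.9 FPKM in control libraries, without overlap (log2 change 0.46, 95% interval -0.01 to 0.93, adjusted p = 0.1298). Bdh1, which converts acetoacetate to β-hydroxybutyrate, measured 79.9 and 102 FPKM in gelADSC libraries, against 98.5 and 96.5 FPKM in control libraries (95% interval -0.57 to 0.34, adjusted p = 0.707). Oxct1, the enzyme with which other tissues use ketone bodies and which hepatocytes largely lack, was the lowest of the 36 in every library, at 2.18 and 1.53 FPKM in gelADSC libraries, against 1.41 and 1.06 FPKM in control libraries (95% interval -0.20 to 0.89, adjusted p = 0.308), with no overlap.

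Ratios of paired genes within a library do not depend on a scale factor applied to that library. Acadl over Acadm was 0.590 and 0.678 in gelADSC libraries, against 1.72 and 1.39 in control libraries, so the more abundant of the 2 dehydrogenases differed between the groups. Acot2 over Acot1 was 0.405 and 0.169 in gelADSC libraries, against 2.23 and 1.30 in control libraries. Hadh over Hadha was 1.54 and 1.35 in gelADSC libraries, against 0.584 and 0.730 in control libraries. Each of these 3 ratios lay on opposite sides of 1 in the groups.

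Eci1 over Eci2 was 0.771 and 0.670 in gelADSC libraries, against 0.321 and 0.342 in control libraries, and Etfdh over Etfa was 0.774 and 0.708 in gelADSC libraries, against 1.49 and 1.24 in control libraries. For the flavoprotein subunits, Etfb over Etfa was 2.28 and 1.88 in gelADSC libraries, against 2.05 and 1.85 in control libraries, with overlap. Acaa1b over Acaa1a was 2.61 and 2.55 in gelADSC libraries, against 2.54 and 1.86 in control libraries. Scp2 over Acox2, both genes of bile acid side chain oxidation, was 12.6 and 11.1 in gelADSC libraries, against 1.93 and 3.61 in control libraries. This pair sets a gene called higher over a gene called lower, so its gap follows from the calls. With 2 libraries per group an exact two-sided permutation test cannot go below p = 0.333, so these ratios were not tested.

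**Figure D4:**
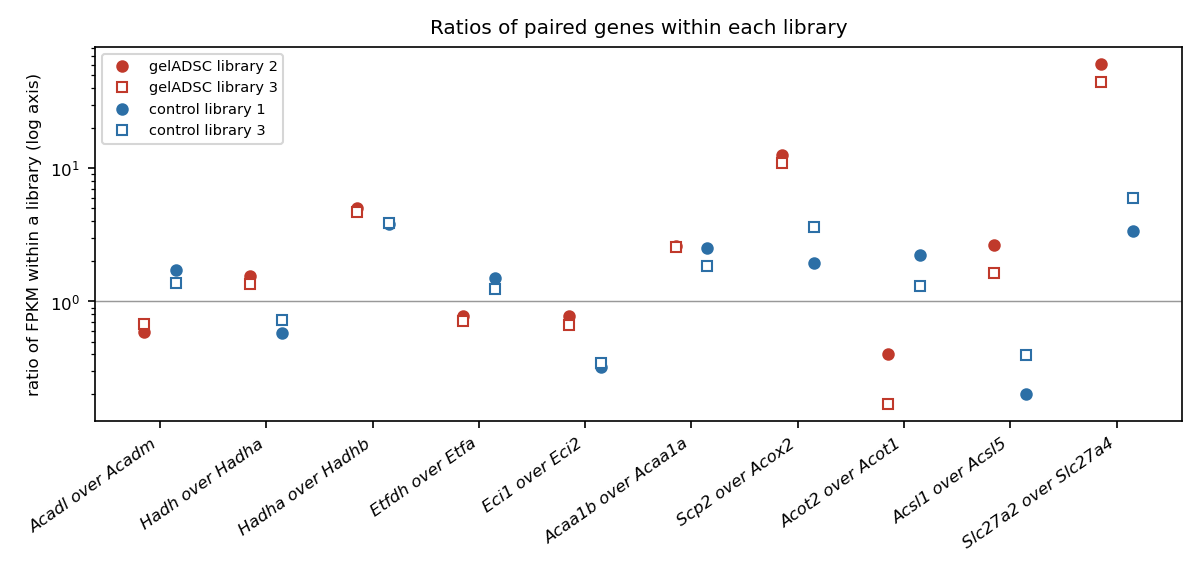
Ratio of FPKM of 10 gene pairs within each library (log axis, line at 1) for gelADSC libraries 2 and 3 (red, left) and control libraries 1 and 3 (blue, right). Acadl over Acadm, Etfdh over Etfa and Acot2 over Acot1 lie below 1 in gelADSC and above 1 in control libraries, and Hadh over Hadha and Acsl1 over Acsl5 lie the other way round.

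Other genes of the pathway were also called in both directions. Of 23 tested genes of activation, transport and mitochondrial oxidation 8 were higher and 5 lower (34.8% and 21.7%, beside 6.92% and 17.5% of all tested genes), with a median log2 change of 0.26. The medium chain acyl-CoA synthetase Acsm5 measured 43.3 and 39.0 FPKM in gelADSC libraries, against 8.26 and 9.98 FPKM in control libraries (log2 change 2.06, limma adjusted p = 0.000392). Slc27a5, the bile acid and very long chain acyl-CoA synthetase of liver, measured 409.8 and 294 FPKM in gelADSC libraries, against 96.6 and 97.0 FPKM in control libraries (log2 change 1.83, adjusted p = 0.00106), and Acsm3 rose with a log2 change of 1.52. Slc27a4, a family member of many tissues, measured 9.16 and 11.2 FPKM in gelADSC libraries, against 53.4 and 34.3 FPKM in control libraries (log2 change -1.98, adjusted p = 0.00126). Fabp2, the intestinal binding protein, fell with a log2 change of -1.33, a call lost in 4 of 9 alternative settings. Acsl5, also called lower (log2 change -1.13), measured 98.6 and 107 FPKM in gelADSC libraries, against 260 and 197 FPKM in control libraries. The ratio of Slc27a2 to Slc27a4 was 60.8 and 44.5 in gelADSC libraries, against 3.38 and 5.99 in control libraries. That of Acsl1 to Acsl5 was 2.64 and 1.63 in gelADSC libraries, against 0.202 and 0.397 in control libraries. Both pairs set a gene called higher over a gene called lower, so these gaps follow from the calls. Fabp4, the adipocyte and macrophage binding protein, fell with a log2 change of -1.66 (adjusted p = 0.0362), a call lost in 5 of 9 alternative settings. Without control library 1 the list held 4 higher and 1 lower genes.

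Among 17 other peroxisomal genes 7 were higher and 1 lower (41.2% and 5.88%, beside 6.92% and 17.5% of all tested genes), with a median log2 change of 0.26. Pecr, the trans-2-enoyl-CoA reductase, measured 140.4 and 107 FPKM in gelADSC libraries, against 28.2 and 29.0 FPKM in control libraries (log2 change 2.06, adjusted p = 0.00049). Hacl1 and Phyh, which act in α-oxidation of branched chains, rose with log2 changes of 1.41 and 1.32, and Pex11a, a peroxisome division factor, fell with -0.91. Without control library 1, 1 of these genes was higher and 0 were lower by limma. Of 7 other ketone body and acetoacetyl-CoA genes 0 were higher and 3 lower (0% and 42.9%, beside 6.92% and 17.5% of all tested genes). The 3 were Hmgcs1 and Acat2, which serve cholesterol synthesis in the cytosol, and Slc16a6, a ketone body exporter, with log2 changes of -1.89, -0.95 and -1.10. The count lower was 0 with no filter, 0 when control library 1 was left out and 1 with median ratio scaling, and of the 9 alternative settings 3 called Acat2, 5 called Hmgcs1 and 7 called Slc16a6.

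**Figure D5:**
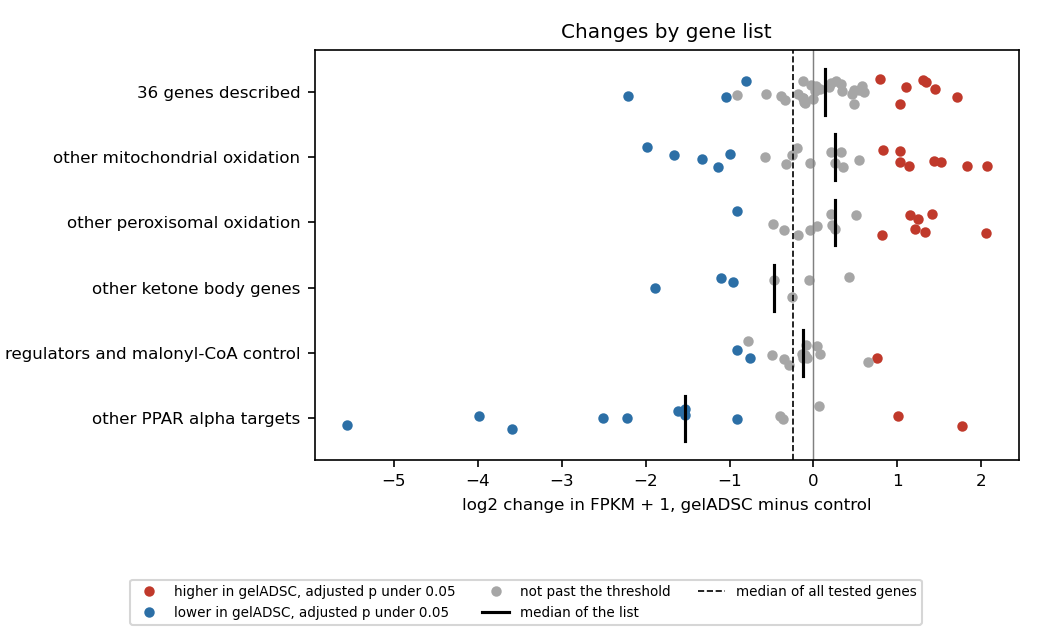
Log2 change of each tested gene, gelADSC minus control, in the 36 genes and in 5 further lists, with the median of each list as a bar and the median of all tested genes as a dashed line. The list of other PPARα targets has its median at -1.53, below those of the oxidation lists at 0.13 to 0.26, while individual genes of most lists lie on both sides of 0.

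Ppara, the gene of the receptor PPARα, measured 51.5 and 29.9 FPKM in gelADSC libraries, against 28.2 and 21.6 FPKM in control libraries, without overlap but short of the threshold (log2 change 0.65, 95% interval 0.02 to 1.28, adjusted p = 0.116). Of 15 tested regulators and malonyl-CoA enzymes 1 was higher and 2 lower (6.67% and 13.3%, close to the 6.92% and 17.5% of all tested genes). Sirt3, a mitochondrial deacetylase, was higher (log2 change 0.76). Creb3l3, a liver transcription factor, and Esrra, the nuclear receptor ERRα, were lower, with -0.92 and -0.76. None of the 3 calls held with median ratio scaling. Of 14 other known PPARα targets 2 were higher and 9 lower (14.3% and 64.3%, beside 6.92% and 17.5% of all tested genes), with a median log2 change of -1.53. Cyp4a10 and Cyp4a14, fatty acid ω-hydroxylases, rose with log2 changes of 1.77 and 1.00, and the call of Cyp4a14 was lost in 4 of 9 alternative settings. Cidec, Fgf21 and Hilpda fell with -5.56, -3.98 and -3.59, and Pdk4, the kinase that shuts pyruvate dehydrogenase, measured 14.3 and 8.64 FPKM in gelADSC libraries, against 53.6 and 58.0 FPKM in control libraries (log2 change -2.22, limma adjusted p = 0.00074). The genes that fell included lipid droplet proteins (Cidec, Plin2 and Hilpda) and the lipase Pnpla2, besides secreted factors (Fgf21 and Angptl4), Pdk4 and the carrier Ucp2. Cidea, a lipid droplet protein also counted among the 9, measured 0.0704 and 0.0853 FPKM in gelADSC libraries, against 1.55 and 3.27 FPKM in control libraries. Cidea passed the filter on low values only through the control group, so its call adds no support. Without control library 3 it was not tested.

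Hepatocyte markers were abundant in all 4 libraries. Of 9 that the deposited list holds 0 passed the test by limma (4 at an unadjusted p under 0.05), and their summed level was 48531 and 70290 FPKM in gelADSC libraries, against 57905 and 66999.9 FPKM in control libraries. Transferrin, which the deposited list holds as Trf and which is not in that sum, measured 10303 and 7973 FPKM in gelADSC libraries, against 10846 and 16106 FPKM in control libraries, without overlap. In bulk tissue fewer cells of a type and less RNA per cell cannot be told apart. Summed Kupffer cell markers were 355 and 219 FPKM in gelADSC libraries, against 274 and 331 FPKM in control libraries, with 0 of 8 called by limma (3 at an unadjusted p under 0.05), and endothelial markers 132 and 118 FPKM in gelADSC libraries, against 124 and 113 FPKM in control libraries, with 2 of 8 higher and 1 lower. Of 8 monocyte and neutrophil markers 2 were lower, and their sum was 247 and 71.9 FPKM in gelADSC libraries, against 217 and 197 FPKM in control libraries. Duct cell markers summed to 58.2 and 49.8 FPKM in gelADSC libraries, against 171 and 312 FPKM in control libraries, with 2 of 5 tested markers lower (Sox9 and Spp1). Most of each duct sum was Spp1, at 52.1 and 43.5 FPKM in gelADSC libraries, against 150 and 298 FPKM in control libraries. The duct markers Krt19, Krt7 and Epcam were not called (log2 change -0.66, -0.16 and 0.03). Stellate cell and fibroblast markers summed to 135 and 115 FPKM in gelADSC libraries, against 154 and 72.6 FPKM in control libraries, with 3 of 8 higher. Beside all of these marker counts, 6.92% of all tested genes were higher and 17.5% lower. Lymphocyte markers summed to 5.97 and 4.93 FPKM in gelADSC libraries, against 1.57 and 1.93 FPKM in control libraries. Only 1 of these 8 markers passed the filter on low values, and 0 were called by limma. The sums are therefore small values whose difference was largely not tested. The adipocyte markers Adipoq, Plin1, Lep and Retn were above 0 in gelADSC library 2 and control library 1 and listed at 0 in gelADSC library 3 and control library 3, and the whole adipose list summed to 45.7 and 15.5 FPKM in gelADSC libraries, against 108 and 54.6 FPKM in control libraries, most of it Fabp4. Their part in the results on Fabp4 and Cd36 was not tested.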

How the data were processed

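RNA-seq of 4 mouse liver samples after hepatectomy was analysed, 2 gelADSC and 2 control. An RNeasy kit and a TruSeq stranded mRNA kit were used, per the labels' protocols. The deposited values were taken as FPKM, since Cufflinks 2.2.1 stands beside Trimmomatic 0.38 and TopHat2 2.1.1 in the submitters' processing notes, with no settings, and since the values are not whole and step by gene. As build they give hg19, a human genome, although the symbols are those of mouse. The sources used here give neither the annotation nor the strand setting. Columns carry the numbers 1 and 3 (control) and 2 and 3 (gelADSC), which match no title, so libraries were not paired.

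Genes that averaged 1 FPKM or more were tested on log2(FPKM + 1), as deposited and without further scaling, with limma 3.58.1 in R 4.3.3 (mean-variance trend, two-sided, Benjamini-Hochberg over all 11070 genes, threshold 0.05). Depth was read from steps of values under 0.2 FPKM with GENCODE M21 lengths of single-transcript genes, and is approximate. Alternatives were pseudocounts of 0.1 and 5, no filter, 2 scalings and leaving out each library. The members and lists were chosen with earlier results of these data known. Named are all 36 members, in each other list of pathway genes and regulators the called genes with the 3 largest changes in each direction, and Ppara. Some genes of these lists are not reported here by name. Acsl5, Pdk4, Cidea, Plin2, Pnpla2, Angptl4, Ucp2, Acot5, Acot6, Trf, Adipoq, Plin1, Lep, Retn, Spp1, Sox9, Krt19, Krt7 and Epcam fall outside that rule and were named after their values were seen. Other markers of cell types are given as sums and counts. The hepatocyte marker Tf matched no row under that symbol, so transferrin, listed as Trf, is outside the marker sum and count.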

Additional observations from a re-analysis of the deposited data

How the results depend on the processing

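None of the 10 calls among the 36 genes changed direction in the 9 alternatives, and Slc27a2 and Acot2 were called in all of them. The number of members higher was 7 with the settings of the report, 3 with no filter, and 1 to 9 when a library was left out. Members lower numbered 3, and 1 to 4 when a library was left out. Without control library 1, 1 was higher and 1 lower, where the lone control is assumed to vary as the gelADSC libraries do. Over all genes, 1936 were lower as reported, 730 with no filter, 948 (median ratio scaling), 1000 (quantile normalization) and 331 to 1708 with a library left out, and 766 were higher, with 303 to 775 when a library was left out. The median log2 change of the 36 genes was 0.13 as reported. Median ratio scaling gave 0.42 (all genes -0.00), and quantile normalization gave 0.30 (all genes -0.04). The cause of these shifts was not tested. Peroxisomal members higher numbered 3, 1 with median ratio scaling, 0 with no filter and 0 to 3 with a library left out. In the other lists, without control library 1, 4 mitochondrial, 1 peroxisomal and 0 ketone body genes were higher, and 0 ketone body genes (3 as reported) and 7 PPARα targets (9 as reported) were lower.

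A total of 12 members, none of them called in the report, changed sign in some setting. With median ratio scaling the log2 change was 0.17 for Cpt1a, 0.26 for Cpt2, 0.11 for Acadvl, 0.16 for Hadhb, 0.16 for Decr1, 0.18 for Bdh1, 0.28 for Cd36 and 0.15 for Acot3. With quantile normalization it was 0.21 for Cpt2, 0.19 for Hadhb, 0.13 for Decr1, 0.085 for Bdh1, 0.30 for Cd36 and 0.13 for Acot3, and at a pseudocount of 5 it was 0.017 for Acot3. Leaving out a library in turn gave -0.089 to 0.037 for Cpt2, -0.11 to 0.15 for Acads, -0.26 to 0.018 for Hadhb, -0.25 to 0.0061 for Decr1, -0.13 to 0.19 for Ehhadh, -0.28 to 0.060 for Bdh1, -0.16 to 0.15 for Cd36, -0.15 to 0.69 for Acot1, -1.19 to 1.00 for Acot3 and -0.23 to 0.88 for Acot4. Acot3 alone was called in both directions. No paired analysis was possible because the columns of the 2 groups share only the number 3. Even Oxct1, the lowest member, lay far above the level of 1 read, which shows only that it was detected. Whether depth limited the precision of these changes was not tested. The 2 libraries per group limit the precision of every change.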

Other observations

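Acot5, the gene next to Acot3 in the same row of thioesterase genes and chosen after its values were seen, measured 0.189 and 0.164 FPKM in gelADSC libraries 2 and 3, against 7.64 and 2.29 FPKM in control libraries 1 and 3. Of the 50-base stretches of Acot3 transcripts, 5.98% also occur in Acot5 transcripts. Within the row, Acot2 and Acot5 read lower in both gelADSC libraries than in both controls, as did 50.5% of all tested genes. Acot5 passed the filter on low values only through the control group, so its lower level adds no support. Acot1, Acot3 and Acot4 overlapped between groups. Acot6, which follows Acot5, also overlapped, with 0.630 and 1.12 FPKM in gelADSC libraries, against 0.771 and 1.39 FPKM in control libraries. Its average lay below the filter on low values, so Acot6 was not tested.

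The order of the 36 genes by level was stable at the top and moved in the middle. Fabp1 and Scp2 ranked 1 and 2 and Acaa2 ranked 3 in all 4 libraries. Acsl1 ranked 7 and 11 in gelADSC libraries, against 28 and 25 in control libraries, Hadh ranked 8 and 9 in gelADSC libraries, against 25 and 21 in control libraries, and Acox2 ranked 25 and 23 in gelADSC libraries, against 5 and 11 in control libraries. These ranks describe the libraries and were not tested.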
